A study of Mus musculus with 4 samples.

Results

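The genes followed here encode the GATA, Scl and Lmo2 complex, a set of transcription factors and adaptors that bind DNA together in blood cells. The genes were chosen with earlier results of these data known. Probes were taken by name, as every array probe named for Gata1, Gata2, Gata3, Tal1 (the gene of Scl), Lyl1, Lmo2, Ldb1 or Zfpm1. This gave 8 genes of 31660 on the array and 9 probes of 39429. All 8 genes were well above background on all 4 arrays by the scanner's own flag, and all were among the 19391 genes tested.

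In blood cells GATA factors read the sequence AGATAA, and Tal1 or its relative Lyl1 pairs with an E protein to read the E-box CANNTG. Lmo2 and Ldb1 bridge the DNA-bound proteins, and Ldb1 also brings distant enhancers to promoters. Gata2, Tal1, Lyl1 and Lmo2 are known from stem and progenitor cells, Gata1 from red cell, platelet and mast cell precursors, and Gata3 from T cells and innate lymphocytes. In normal B-cell development GATA factors are kept low.

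The cells were preproB cells, an early B-lymphoid stage, sorted from the marrow of C57BL/6 mice as lineage-negative, B220+, CD43+, BP1- and CD24- cells. The EnhDel group comprised 2 samples labelled male and 24 weeks old, with a floxed enhancer 37 kb from Cebpa on both alleles (Enh(f/f)) and the recombinase transgene Mx1-Cre. The control group comprised 1 sample labelled female and 26 weeks old and 1 labelled male and 24 weeks old, both Enh(f/f) without Cre. Mice of both groups had received 3 doses of pIpC, a double-stranded RNA that induces interferon and with it Mx1-Cre, and cells were taken 5 weeks later. Mx1-Cre acts in many interferon-responsive cells and not in the B lineage alone, and as only EnhDel mice carried it, loss of the enhancer and presence of Cre cannot be told apart. Nothing in the labels says that the samples came from separate mice, so p-values reflect only how far these samples spread.

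Each sample was hybridised to 1 one-colour array, and all 4 arrays shared a slide and a scan. Between 59.6% and 64.9% of probes passed the scanner's background flag on each array. None of the spots was saturated, and with 2 arrays a group the precision is limited. The SD of the log2 difference between replicate arrays, over genes, was 0.61 for EnhDel and 0.33 for control. Cebpa, the gene the enhancer serves, had signals of 125 and 287 in EnhDel, against 1271 and 927 in control (log2 difference -2.42 ± 0.45, adjusted p = 0.248 in limma). Of the gate's genes, Ptprc (B220) and Spn (CD43) gave signal on all arrays and Enpep (BP1) on none, but Cd24a, excluded by the gate, had signals of 1910 to 6366. All 15 genes of a plasmacytoid dendritic cell list were well above background on every array, with Siglech at 164088 and 169885 in EnhDel, against 169857 and 177653 in control. Of the B-lineage genes, Pax5, which fixes B-cell identity, was well above background on 1 control array alone.

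The sex labels did not match all arrays. Xist, the RNA of the inactive X chromosome, had a signal of 597 on EnhDel replicate 2, which is labelled male, and was not well above background on the other 3 arrays, including the control labelled female. The Y-linked Ddx3y was well above background on all 4, at 3624 and 1560 in EnhDel, against 3116 and 3474 in control. EnhDel replicate 2 and the control labelled female thus both went against their labels, and whether labels were swapped or samples held RNA of more than 1 mouse was not tested. Results without the female-labelled control are in the ranges over alternatives, and each gene's difference is also given with 1 EnhDel array alone.

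Gata1, Gata3 and Tal1 were dim genes with higher signals in EnhDel than in control, Gata2 was higher mainly on 1 EnhDel array, and Lyl1, a bright gene, had about 47.0% of its control level. Lmo2, Ldb1 and Zfpm1 were within a log2 difference of 0.26 of control. No gene passed adjusted p < 0.05 in limma, among the 8 or among all 19391 (0% called), and the lowest adjusted p of any gene was 0.0514. At unadjusted p < 0.05, 4 of the 8 passed, beside 2130 (11.0%) of all genes. Both EnhDel arrays lay above both control arrays for 4 of the 8 (27.2% of all genes), and below them for 1 of the 8 (16.7% of all genes). At least 2-fold higher with unadjusted p < 0.05 were 3 of the 8 (2.36% of all genes), and at least 2-fold lower was 1 (1.96%). The median log2 difference was 0.65 over the 8 and 0.06 over all genes, of which 58.4% were higher. With 2 arrays against 2, a two-sided exact permutation test of a single gene cannot go below p = 0.333.

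**Figure D1:**
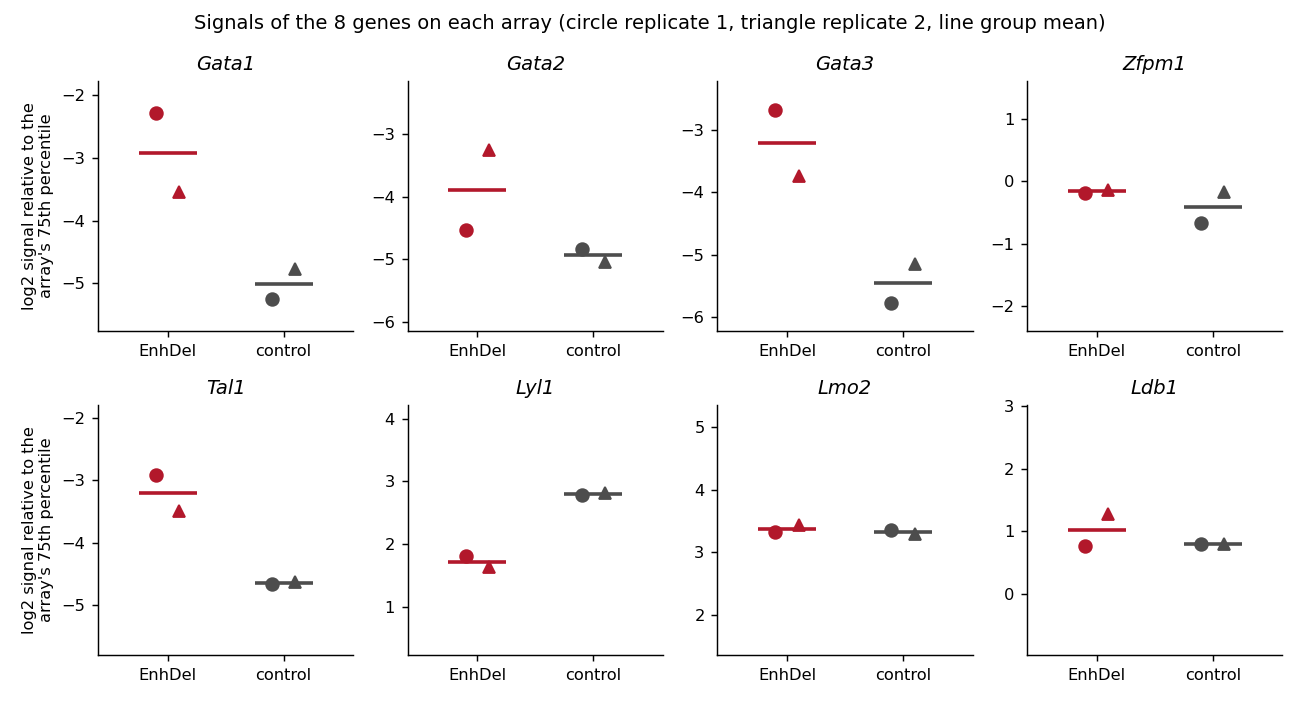
Signal of each gene on each array, as log2 relative to that array's 75th percentile, with EnhDel left of control. Circles mark replicate 1, triangles replicate 2 and lines the group means, and every panel spans the same range of log2 units. The EnhDel points lie above the control points for Gata1, Gata2, Gata3 and Tal1, below them for Lyl1, and overlap them for Zfpm1, Lmo2 and Ldb1.

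The promoters of the genes with the clearest separation are shown so that the motifs of the complex can be looked for in them. Each is the 250 bases before a RefSeq start on build GRCm38.p6, given 5′ to 3′ on the gene's strand, with capitals marking a match to AGATAA or CANNTG on either strand. The first 3 belong to genes measured higher in EnhDel and the last to the gene measured lower. They lie at chrX:7967911-7968160 on the minus strand, chr2:9878601-9878850 on the minus strand, chr4:115056176-115056425 on the plus strand and chr8:84701207-84701456 on the plus strand.
Gata1: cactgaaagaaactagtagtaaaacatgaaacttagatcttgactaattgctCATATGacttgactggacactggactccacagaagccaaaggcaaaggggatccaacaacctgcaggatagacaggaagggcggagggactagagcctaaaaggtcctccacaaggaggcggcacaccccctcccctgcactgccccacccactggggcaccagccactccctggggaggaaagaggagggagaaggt
Gata3: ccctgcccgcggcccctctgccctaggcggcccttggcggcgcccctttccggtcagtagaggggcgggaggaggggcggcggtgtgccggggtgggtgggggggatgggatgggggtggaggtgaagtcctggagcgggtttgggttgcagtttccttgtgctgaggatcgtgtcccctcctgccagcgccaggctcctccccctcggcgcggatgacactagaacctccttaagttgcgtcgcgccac
Tal1: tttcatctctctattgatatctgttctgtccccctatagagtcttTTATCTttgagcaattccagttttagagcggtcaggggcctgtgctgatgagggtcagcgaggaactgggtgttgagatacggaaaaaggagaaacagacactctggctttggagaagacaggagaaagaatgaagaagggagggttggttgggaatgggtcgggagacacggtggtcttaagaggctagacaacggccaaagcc
Lyl1: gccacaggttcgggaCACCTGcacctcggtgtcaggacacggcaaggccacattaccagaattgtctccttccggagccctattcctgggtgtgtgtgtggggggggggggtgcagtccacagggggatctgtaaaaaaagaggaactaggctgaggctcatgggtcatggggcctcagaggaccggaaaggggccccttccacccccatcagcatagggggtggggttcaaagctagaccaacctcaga

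Of 2 Tal1 promoters, the one shown held the reverse complement of AGATAA, 205 bases before the start, while the other held neither motif. The Gata1 and Lyl1 promoters each held an E-box, 198 and 235 bases before the start. The Gata3 window held neither motif. The RefSeq promoter table matched 7 of the 8 genes with 11 promoters, and Lmo2 was not among them. AGATAA was in 2 of the 11, beside 9.99% of 32851 promoters of the same length. CANNTG was in 3 of the 11, beside 66.2% of all. The other promoter with AGATAA, that of Ldb1 on chromosome 19, was also the 1 of 11 with both motifs (6.93% of all). A match describes these letters in this window and is not a binding site.

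Gata1, the GATA factor of red cell, platelet and mast cell precursors, had signals of 199 and 89.2 in EnhDel, against 26.6 and 41.4 in control. The groups did not overlap, and EnhDel replicate 1 was the highest array. The log2 difference was 2.11 ± 0.48 (SE, n = 2 arrays a group), or 4.30-fold with a 95% interval of 1.76 to 10.5, with adjusted p = 0.306 in limma. Against the control mean, EnhDel replicate 1 alone was 2.74 higher and replicate 2 alone 1.48 higher on the log2 scale. In control the signals stood 1.84 and 3.02 times above the lowest signal called well above background, so the control level is near the dimmest signal the scanner calls. The probe lies at chrX:7536392-7536451 (mm9, minus strand).

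Gata3, the GATA factor of T cells and innate lymphocytes, had signals of 151 and 77.5 in EnhDel, against 18.7 and 32.0 in control. Its arrays fell in the same order as those of Gata1, without overlap between groups. The log2 difference was 2.25 ± 0.44, or 4.74-fold with an interval of 2.08 to 10.8 (adjusted p = 0.264 in limma). EnhDel replicate 1 alone was 2.78 higher and replicate 2 alone 1.71 higher than the control mean on the log2 scale. Control replicate 1 stood 1.29 times above the lowest signal called, the dimmest value of any of the 8 genes. The probe lies at chr2:9779551-9779610 (mm9, minus strand).

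Gata2, the GATA factor of stem cells and mast cell precursors, had signals of 41.8 and 109 in EnhDel, against 35.6 and 34.5 in control. EnhDel replicate 2 was high, while replicate 1 stood just above the controls. The log2 difference was 1.04 ± 0.46 with an interval of -0.20 to 2.29 (adjusted p = 0.508 in limma). It was 0.40 with EnhDel replicate 1 alone and 1.68 with replicate 2 alone, so 1 array decided its size. The array with high Gata2 was the reverse of that with high Gata1 and Gata3. The probe lies at chr6:88156362-88156421 (mm9, plus strand). Of the other GATA genes, Gata5 had 249 and 373 in EnhDel, against 257 and 237 in control (log2 difference 0.40 ± 0.24, adjusted p = 0.613), and Gata4 and Gata6 were not well above background on any array.

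Zfpm1, or Fog1, is the cofactor that Gata1 needs at many of its targets. Its brighter probe had signals of 848 and 944 in EnhDel, against 641 and 1004 in control. The groups overlapped, and the log2 difference was 0.26 ± 0.22 with an interval of -0.33 to 0.84 (adjusted p = 0.721 in limma). It was 0.23 with EnhDel replicate 1 alone and 0.28 with replicate 2 alone. A second probe, which shares 55 bases with the first on chromosome 8, gave 780 and 870 in EnhDel, against 574 and 929 in control, a log2 difference of 0.27. Zfpm2, the paralogue, was not well above background on any array.

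Tal1 encodes Scl, the basic helix-loop-helix factor needed to make blood stem cells and red cells. It had signals of 128 and 92.1 in EnhDel, against 40.0 and 45.8 in control. The groups did not overlap, and the control arrays lay close together. The log2 difference was 1.44 ± 0.24, or 2.72-fold with an interval of 1.73 to 4.27 (adjusted p = 0.222 in limma). EnhDel replicate 1 alone was 1.73 higher and replicate 2 alone 1.15 higher than the control mean on the log2 scale. The probe lies at chr4:114744219-114744278 (mm9, plus strand). Tal2, a relative, was not well above background on any array.

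Lyl1, a close relative of Tal1 that supports lymphoid progenitors, had signals of 3376 and 3219 in EnhDel, against 7000 and 8034 in control. It was the one gene of the 8 that was lower in EnhDel, its replicates were close in both groups, and its signals lay 264 to 587 times above the lowest signal called. The log2 difference was -1.09 ± 0.15, or 2.13-fold lower with an interval of 1.59 to 2.84 (adjusted p = 0.196 in limma). With EnhDel replicate 1 alone it was -1.004 and with replicate 2 alone -1.17. The probe lies at chr8:87228531-87228590 (mm9, plus strand). Probes differ in brightness for reasons other than RNA amount, so the levels of Tal1 and Lyl1 cannot be set against each other.

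Lmo2, the LIM-only bridge of the complex, had signals of 9665 and 11188 in EnhDel, against 10411 and 11064 in control. The groups overlapped, and the log2 difference was 0.05 ± 0.15 with an interval of -0.35 to 0.46 (adjusted p = 0.913 in limma). Ldb1, the dimerising adaptor that Lmo2 binds, had signals of 1653 and 2519 in EnhDel, against 1762 and 1968 in control. Its difference was 0.23 ± 0.22 with an interval of -0.37 to 0.83 (adjusted p = 0.749). The signs of both were not stable: Lmo2 was -0.20 with another background correction and -0.12 with median scaling. With EnhDel replicate 1 alone Lmo2 was -0.0033 and Ldb1 -0.024.

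**Figure D2:**
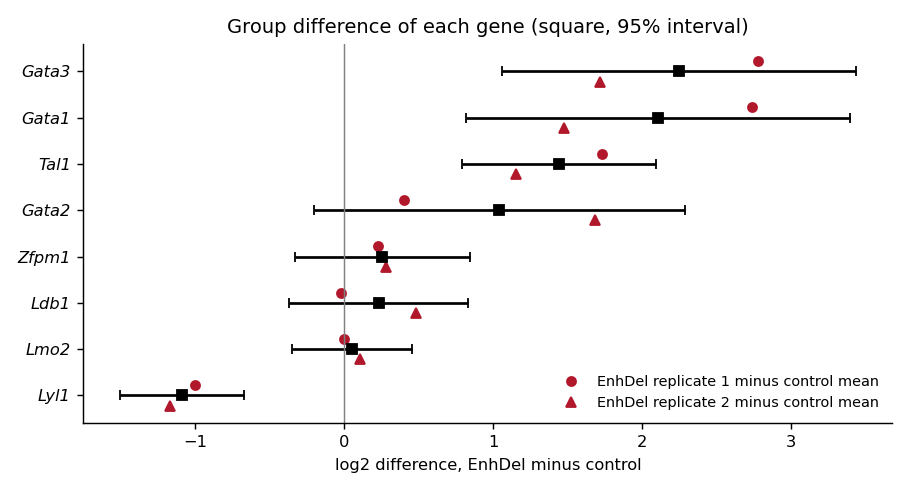
Log2 difference between EnhDel and control for each gene, with squares for the estimate and bars for its 95% interval. Circles and triangles give each EnhDel replicate minus the control mean. The intervals of Gata1, Gata3 and Tal1 lie above 0, that of Lyl1 lies below 0, and those of Gata2, Ldb1, Lmo2 and Zfpm1 include it.

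The 4 dim genes were also those whose size varied most between alternatives. In the authors' deposited table, whose background treatment is not given in the sources used here, the mean log2 values differed by 1.1 for Gata1, 0.5 for Gata2, 1 for Gata3 and 0.75 for Tal1. Lyl1 differed by -1.05 in the authors' deposited table, close to the -1.09 found here. Gata1 stood at 7.8 and 6.8 in EnhDel in the authors' deposited table, against 6.1 and 6.3 in control. Across 15 alternatives, the difference of Gata1 ranged between 1.08 and 2.74, that of Gata2 between 0.40 and 1.68, that of Gata3 between 0.98 and 2.78 and that of Tal1 between 0.75 and 1.73. All of these stayed positive, and Lyl1 stayed between -1.26 and -1.004.

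**Figure D3:**
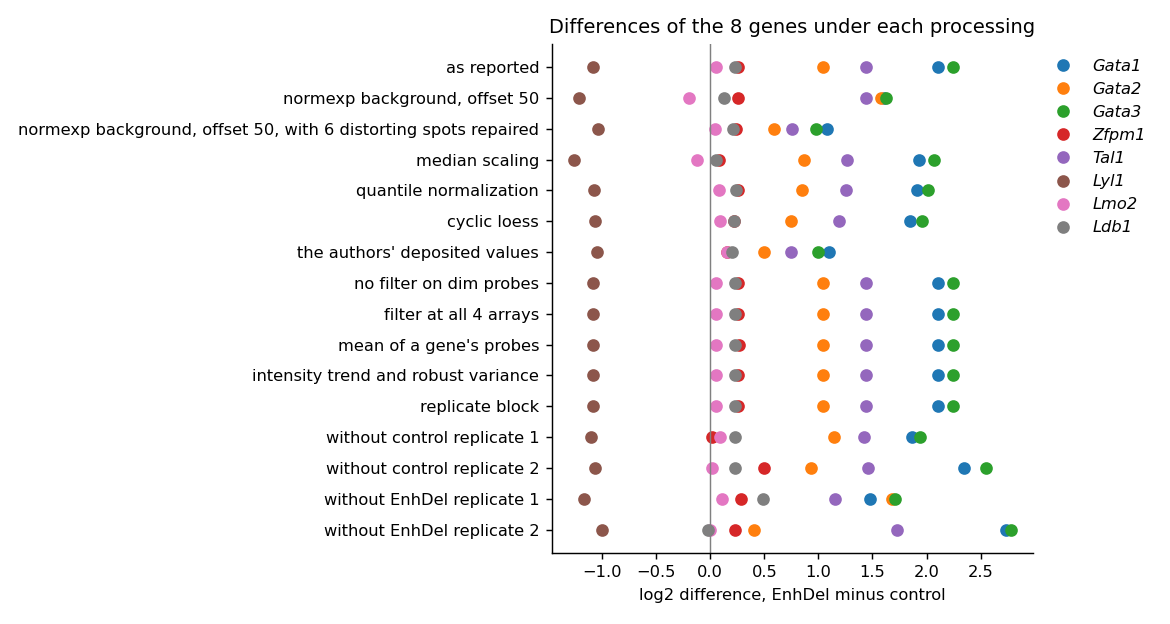
Log2 difference between EnhDel and control (horizontal) for the 8 genes under each processing and with each array left out (rows), 1 colour a gene. The points for Gata1 and Gata3 move between about 1 and 2.78, while those for Lyl1 stay between -1.26 and -1.004.

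Among themselves the genes had different patterns over the arrays. By Euclidean distance between log2 values centred on each gene's mean over the 4 arrays, Gata1 and Gata3 were the closest of the 4 dim genes at 0.218, and Tal1 lay at 0.879 from Gata1. Gata2 lay at 2.14 from Gata1, 2.13 from Gata3 and 1.38 from Tal1. Over all tested genes, the nearest to Gata1 were Asns (asparagine synthetase) at 0.0587, Gata3, and Tcf7 (a T-cell factor) at 0.349. Asns, Gata1 and Wbscr25 (0.381) were nearest to Gata3. Nearest to Gata2 were Prp2 (0.115), Wdfy1 (0.157) and the imprinted RNA H19 (0.179), and nearest to Tal1 were the kinase gene Camk2a (0.113), Trim55 (0.132) and Slc16a5 (0.189). Lyl1 was most like the syntaxin gene Stx1a (0.0535), Ctdspl (0.110) and Pdlim7 (0.124). These distances rest on 4 arrays.

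The E proteins, which pair with Tal1 and Lyl1, and their Id inhibitors were mixed. Of 7 listed genes 6 were tested, 2 were higher and 4 lower. Their median of -0.22 ranged between -0.39 and 0.02 over the alternatives. Tcf3 (E2A) differed by -0.19 ± 0.15 and Tcf4 (E2-2), the brightest of them, by 0.09 ± 0.16. Id3 differed by -0.24 ± 0.17, and Id1 by -0.53 ± 0.55, with 0.26 on EnhDel replicate 2 alone. With normexp background correction Id1 was 1.11, and with 6 distorting spots repaired it was -0.09. Id2 had signals of 1142 and 359 in EnhDel, against 939 and 934 in control, so that its sign depended on the EnhDel array (0.43 with replicate 1 alone, -1.33 with replicate 2 alone). No member of this list or of any other list below passed adjusted p < 0.05 in limma.

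Of 8 LIM-domain and Ldb1 adaptors 6 were tested, with 4 higher, 2 lower and a median of 0.02 (-0.15 to 0.02 over the alternatives). Lmo1, a LIM-only relative of Lmo2, had signals of 114 and 52.2 in EnhDel, against 652 and 746 in control (log2 difference -3.08 ± 0.44, adjusted p = 0.197 in limma). Lmo4, another relative, differed by -0.30 ± 0.19. The single-stranded DNA-binding partners of Ldb1 differed little, with Ssbp2 at 0.06, Ssbp3 at 0.03 and Ssbp4 at 0.11.

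Of 20 corepressors and coactivators bound by the complex, all were tested, 9 were higher and 11 lower, and the median was -0.02 (-0.19 to 0.04 over the alternatives). The widest differences belonged to the paired repressors Gfi1b and Gfi1. Gfi1b, known from red cell and platelet precursors, had signals of 171 and 103 in EnhDel, against 52.2 and 76.7 in control (log2 difference 1.17 ± 0.35, adjusted p = 0.389 in limma). Gfi1, known from lymphoid and granulocyte progenitors, had 203 and 128 in EnhDel, against 360 and 392 in control (-1.13 ± 0.30, adjusted p = 0.347). Neither gene's groups overlapped. Cbfa2t3 (Eto2) differed by 0.33 ± 0.23, Crebbp by 0.42 ± 0.20 and Rbbp4 by -0.41 ± 0.16.

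Stem and progenitor genes bound by the complex were mostly lower. Of 17 listed, 15 were tested, 3 were higher and 12 lower, with a median of -0.45, and 8 lay below control without overlap (16.7% of all genes did). The median was -0.63 with EnhDel replicate 1 alone and -0.28 with replicate 2 alone. Erg, an ETS factor, had signals of 27.5 and 16.6 in EnhDel, against 111 and 173 in control (log2 difference -2.60 ± 0.36, adjusted p = 0.196 in limma). With normexp background correction Erg was only -0.07. Runx1 had 712 and 838 in EnhDel, against 1379 and 1630 in control (-0.86 ± 0.15, adjusted p = 0.234). Kit, the stem cell factor receptor, differed by -0.78 ± 0.14 and Cd34 by -1.48 ± 0.37. The largest of the 3 higher genes was Procr, at 1.27 ± 0.46, with 466 and 1227 in EnhDel, against 335 and 338 in control, so that its high array was the one with high Gata2.

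Erythroid targets of Gata1 were mostly higher and mostly dim. Of 20 listed, 8 were well above background on all 4 arrays, 7 higher and 1 lower, with a median of 0.64. Another 5 entered the test through EnhDel, where they were high, and with them the median was 1.17 (1.04 with genes not well above background in control at their bound, and 0.50 to 1.42 over the alternatives). Car1, a red cell carbonic anhydrase, had signals of 283 and 339 in EnhDel, against 135 and 160 in control (log2 difference 1.17 ± 0.16, adjusted p = 0.195 in limma). Klf1, the erythroid Krüppel-like factor, had 41.1 and 17.7 in EnhDel and was not well above background in control. In processed signal this makes Klf1 at least 2.05-fold higher. Epor, the erythropoietin receptor, was at least 3.65-fold higher by the same reckoning. These bounds set the EnhDel mean against the higher, per control array, of the gene's own signal and the lowest signal called well above background. They hold for the processed signals used here and need not hold under another background correction. In the authors' deposited table the log2 differences were 0.60 for Klf1 and 0.70 for Epor. Under normexp with 6 distorting spots repaired (repaired normexp) they were 0.56 and 0.62. All of these are smaller than the bounds. Normexp without the repair gave 1.55 and 1.51. Hemgn, the brightest of the list, differed by -0.01, and Epb42 and Rhag were not well above background on any array. The summed level of the list, in units of each array's 75th percentile, was 62.4 and 48.3 in EnhDel, against 54.1 and 52.9 in control, and was mostly that of Hemgn.

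Megakaryocyte targets were likewise dim and mostly higher. Of 16 listed, 9 were well above background on all 4 arrays, all of them higher, with a median of 0.57. Another 3 were tested: Gp9 and Itga2b entered through EnhDel, where they were high, and Mmrn1 through control. With them the median was 0.60 (0.57 with bounds), and it ranged between 0.28 and 1.26 over the alternatives. In processed signal Gp9, a platelet glycoprotein, was at least 2.68-fold higher and Itga2b, the platelet integrin, at least 1.47-fold higher. In the authors' deposited table the log2 differences of this pair were 0.40 and 0.45, and under repaired normexp 0.43 and 0.41. All of these are smaller than the bounds, while normexp without the repair gave 1.48 and 1.58. Ppbp, a platelet chemokine, had signals of 71.2 and 77.9 in EnhDel, against 37.1 and 20.2 in control (log2 difference 1.54 ± 0.38). Mmrn1, a platelet granule protein, was the one lower gene tested, with signals of 34.8 and 4.19 in EnhDel, against 115 and 184 in control. Replicate 2 of EnhDel was not well above background, and with replicate 1 alone Mmrn1 differed by -1.91. Over all arrays Mmrn1 was -0.28 under normexp and -1.30 under repaired normexp. The list summed to 1.04 and 1.21 in EnhDel, against 0.927 and 0.741 in control.

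Mast cell, basophil and eosinophil targets of GATA factors were higher mainly on EnhDel replicate 2. Of 16 listed, 7 were well above background on all 4 arrays, all of them higher, with a median of 0.78. Over the 10 tested, 7 higher and 3 lower, the median was 0.49, with -0.12 on EnhDel replicate 1 alone and 1.25 on replicate 2 alone. Their summed level was 1.10 and 3.07 in EnhDel, against 1.02 and 1.08 in control. Cpa3, mast cell carboxypeptidase, had signals of 330 and 1656 in EnhDel, against 273 and 391 in control. Among the 3 lower genes, Hdc differed by -2.71 and Mcpt8 by -1.57. With EnhDel replicate 1 alone these were -4.81 and -3.27, and with replicate 2 alone -0.62 and 0.13. Under normexp they were 0.61 and 0.98, and under repaired normexp -0.69 and -0.30. EnhDel replicate 2 was also the array with high Gata2. Fcer1a, Ms4a2 and Cma1, which define mast cells and basophils, were not well above background on any array. Il1rl1, the interleukin-33 receptor, was even between EnhDel arrays at 85.6 and 90.2, against 29.7 and 21.3 in control (1.90 ± 0.26, adjusted p = 0.196 in limma). In the authors' deposited table Il1rl1 differed by 0.5. Whether cells of these types took part in the values of Gata1, Gata2 and Tal1 was not tested. In sorted bulk samples a different number of such cells and a different amount of RNA per cell cannot be told apart.

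T-cell genes, to be read beside Gata3, were split. Of 18 listed, 17 were tested, 11 higher and 6 lower, with a median of 0.44 (0.20 to 0.58 over the alternatives). Tcf7, an early T-cell factor, had signals of 335 and 127 in EnhDel, against 45.6 and 53.0 in control (log2 difference 2.17 ± 0.53, adjusted p = 0.325 in limma). Bcl11b, which fixes the T-cell fate, had 58.7 and 44.2 in EnhDel, against 17.4 and 15.3 in control (1.74 ± 0.25, adjusted p = 0.204). Its control signals were near the lowest called well above background on those arrays, 14.4 and 13.7. Cd3g, a part of the T-cell receptor complex, differed by 1.05 ± 0.14 (adjusted p = 0.196). In the authors' deposited table the log2 differences were smaller, at 0.85 for Tcf7, 0.45 for Bcl11b and 0.5 for Cd3g. The list summed to 18.2 and 15.7 in EnhDel, against 18.5 and 16.6 in control, and Lck and Thy1 were lower on average in EnhDel, at -0.50 and -0.37.

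Of 12 natural killer genes, 8 were well above background on all 4 arrays, 6 higher and 2 lower, with a median of 0.61 (0.70 over all 11 tested, and 0.32 to 1.09 over the alternatives). The list summed to 16.4 and 13.7 in EnhDel, against 16.7 and 14.5 in control. Gzmb, a cytotoxic granule protease, entered the test through EnhDel, where it was high. It was at least 9.69-fold higher in processed signal. Its log2 difference was 1.85 in the authors' deposited table and 1.65 under repaired normexp, both smaller than that bound. Eomes, a natural killer cell factor, differed by 1.29 ± 0.17, while Klrk1 differed by -1.25 ± 0.17. Klrk1 turned positive under normexp but was -0.47 under repaired normexp. Of 10 genes of type 2 innate lymphocytes, 4 were tested, all higher, with a median of 0.47 (0.83 with EnhDel replicate 1 alone, 0.14 with replicate 2 alone). These were Il1rl1 at 1.90, which is also in the mast cell list, Il2ra at 0.75, Il17rb at 0.18 and Rora at 0.03. Il17rb and Rora changed sign in some alternatives. The other 6, Il5 and Il13 among them, were not well above background on any array. That list summed to 3.84 and 2.70 in EnhDel, against 2.74 and 2.73 in control. The part of such cells in the values of Gata3 was not tested.

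Other lists leaned one way between the groups too. Over genes well above background on all 4 arrays, B-lineage genes were lower for 10 of 13, with a median of -1.03. Over the 14 tested the median was -1.62 (-1.06 with EnhDel replicate 1 alone, -2.13 with replicate 2 alone). Under normexp it was -0.65, and under repaired normexp -1.12. B-lineage genes had sums of 115 and 101 in EnhDel, against 130 and 138 in control. Monocyte genes were lower for 7 of 10 on the same terms, with a median of -1.001 (-1.99 over the 14 tested, 4 of which entered through control alone). They had sums of 117 and 116 in EnhDel, against 129 and 113 in control. Neutrophil granule genes were lower for 5 of 8, with a median of -1.06. Over the 9 tested it was -1.77 with EnhDel replicate 1 alone, -0.34 with replicate 2 alone, 0.55 under normexp and -0.51 under repaired normexp. They had sums of 1.18 and 10.5 in EnhDel, against 19.3 and 22.9 in control. Plasmacytoid dendritic cell genes had a median of 0.22 (-0.01 to 0.52 over the alternatives) and sums of 1013 and 1023 in EnhDel, against 1046 and 943 in control. Interferon-stimulated genes were higher for 18 of 19, with a median of 1.13 (0.51 with EnhDel replicate 1 alone, 1.63 with replicate 2 alone) and sums of 232 and 247 in EnhDel, against 218 and 215 in control. Their part in the values of the 8 genes was not tested.

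**Figure D4:**
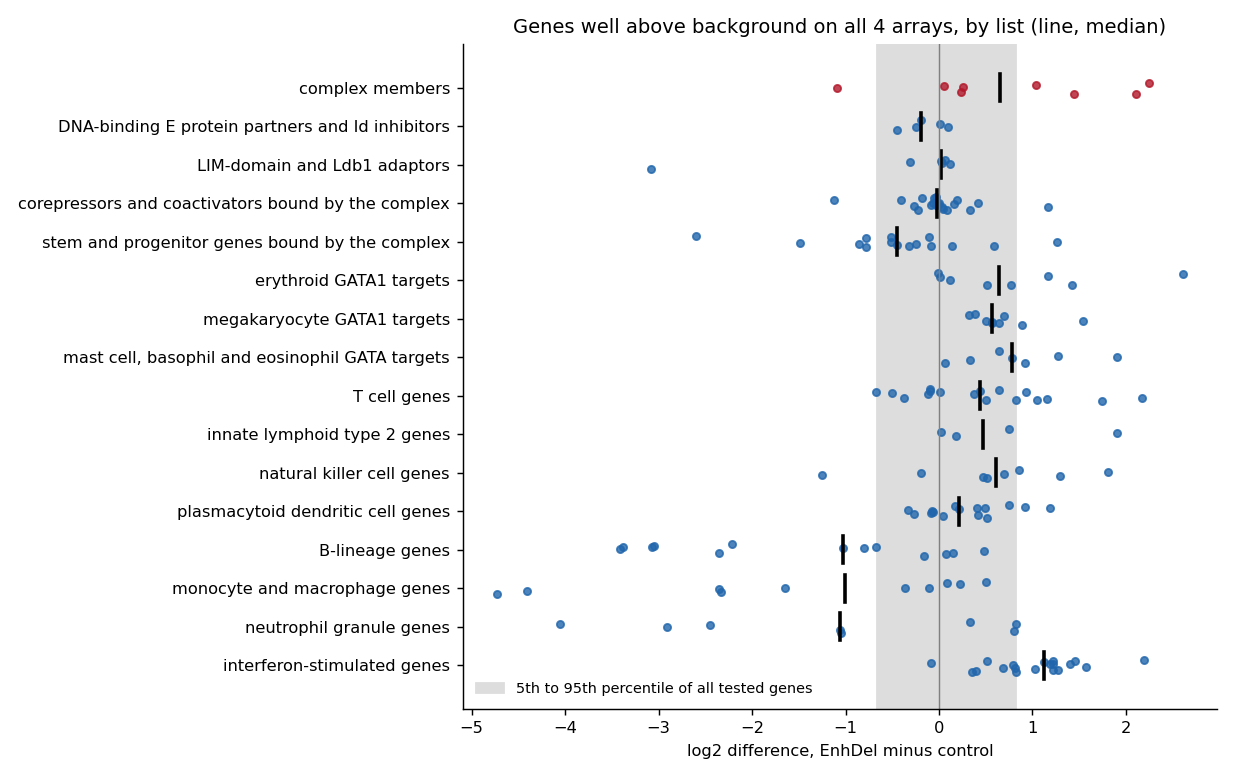
Log2 difference between EnhDel and control (horizontal) for genes well above background on all 4 arrays, by list. Points are genes, black lines medians, red points the 8 genes of the complex, and the grey band runs from the 5th to the 95th percentile of all tested genes. The erythroid, mast cell and interferon-stimulated lists lie mostly right of 0 and the B-lineage and monocyte lists mostly left of it. The 3 lower genes of the mast cell, basophil and eosinophil list were not well above background on all 4 arrays and are not shown.

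The genes next to the 8 on the chromosome were looked at for shifts over a wider stretch. Of 32 protein-coding neighbours, 2 on each side in the RefSeq order, 25 were tested, 11 were higher and 14 lower, with a median of -0.05. Tal1 was the exception in having neighbours that differed by more than 1 on the log2 scale. Pdzk1ip1, after Tal1, had signals of 47.1 and 31.3 in EnhDel, against 11.6 and 15.0 in control. It entered the test through EnhDel, where it was high, as only 1 of 2 control arrays was well above background. Its log2 difference of 1.64 ± 0.28 uses a control replicate 1 signal below the lowest called on that array, 14.4. Stil, just before Tal1, had 106 and 49.8 in EnhDel, against 173 and 255 in control (log2 difference -1.43 ± 0.45, adjusted p = 0.399 in limma). The tested neighbours of Gata3, which were Usp6nl, Celf2, Taf3 and Atp5c1, lay between -0.27 and 0.15. Those of Gata1 were Hdac6 at -0.21 and Suv39h1 at -0.32. Those of Lyl1 were Nacc1 at 0.07, Trmt1 at 0.01, Nfix at -0.31 and Dand5 at 0.11.

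**Figure D5:**
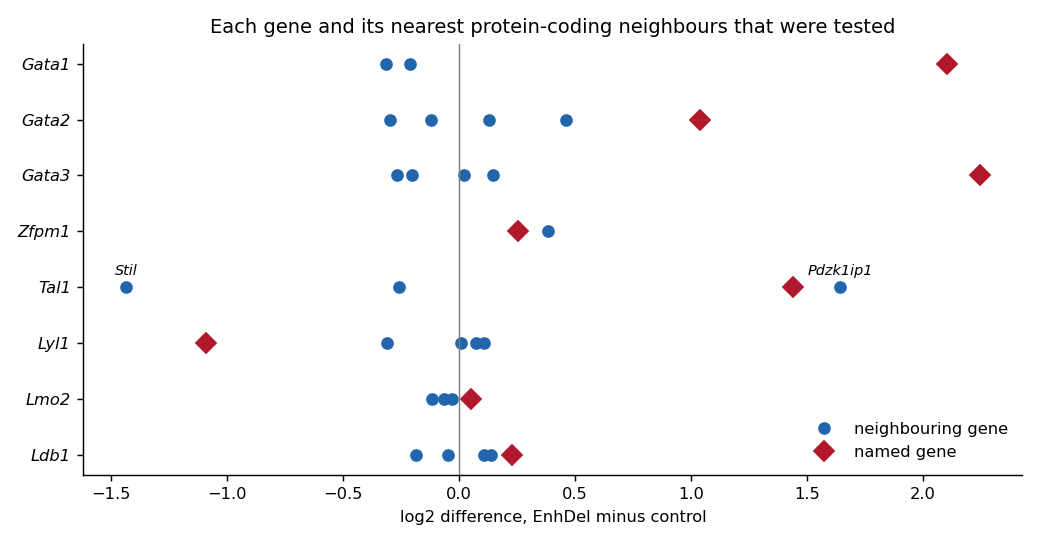
Log2 difference between EnhDel and control (horizontal) for each gene of the complex (red diamonds) and for its tested protein-coding neighbours (blue circles), 1 row a gene. The neighbours of Tal1 spread between -1.43 and 1.64, while those of Gata1, Gata2, Gata3 and Lyl1 stay between -0.32 and 0.46. Pdzk1ip1 at 1.64 and Dnajb8 at 0.46 entered the test through EnhDel, with 1 of 2 control arrays well above background.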

How the data were processed

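Total RNA of sorted preproB cells was measured on 1-colour Agilent arrays, 2 EnhDel and 2 control, grouped by the labels. Per the file headers, Agilent Feature Extraction 10.7.3.1 wrote the deposited scanner files, which give background-corrected intensity for 44397 spots, with positions on mm9. The authors also deposited 1 table of log2 values to 1 decimal, each column with a median of 6.5; its scale is log2, and its normalization is not given in the sources used here.

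Control and outlier-marked spots were left out, spots of a probe were averaged, and log2 signal was taken relative to each array's 75th percentile. Probes were named through RefSeq GRCm38.p6 (26581 matched, 2892 updated). A gene, taken as its brightest probe, was tested if it passed the background flag on both arrays of either group. Groups were compared over 19391 genes with limma 3.58.1 in R 4.3.3 (lmFit, eBayes, Benjamini-Hochberg), which was tested on simulated data. The alternatives changed background, scaling, filter, probe rule, variance model, replicate block, source of values and arrays used. Signals printed are processed signals before scaling.

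The genes and the 16 lists were chosen with earlier results of these data known. The text names all 8 genes and, from each list, mainly the 4 tested genes of smallest p and others by role. For each gene past a log2 difference of 1 it names the 3 nearest profiles, leaving out accession, clone and position names.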

Additional observations from a re-analysis of the deposited data

How the results depend on the processing

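The number of genes past adjusted p < 0.05 in limma was 0 as reported (2130 at unadjusted p), 26 with median scaling, and between 0 and 3013 with 1 array left out: 3 without control replicate 2, 78 without EnhDel replicate 2 and 3013 without EnhDel replicate 1. A group left with 1 array is assumed to vary like the other. Without EnhDel replicate 1, the log2 difference was 1.48 for Gata1, 1.68 for Gata2, 1.71 for Gata3, 1.15 for Tal1 and -1.17 for Lyl1. Over the arrays left out in turn, the log2 differences ran from 1.48 to 2.74 for Gata1, 0.40 to 1.68 for Gata2, 1.71 to 2.78 for Gata3, 1.15 to 1.73 for Tal1, -1.17 to -1.004 for Lyl1, -0.0033 to 0.11 for Lmo2, -0.024 to 0.48 for Ldb1 and 0.013 to 0.50 for Zfpm1.

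Lmo2 turned negative with normexp (-0.20), with median scaling (-0.12) and without EnhDel replicate 2 (-0.0033). Under repaired normexp Lmo2 was 0.04. Ldb1 turned negative without EnhDel replicate 2 (-0.024). Median scaling put the all-gene median at -0.12 and normexp at 0.20, in place of 0.06, so smaller differences are relative to it. Normexp with the 6 spots of high local background on EnhDel replicate 1 repaired gave 1.08 for Gata1, 0.59 for Gata2, 0.98 for Gata3 and 0.75 for Tal1; the cause was not tested. With the replicate block the values were unchanged, 0 genes passed and adjusted p was 0.413 for Gata1, 0.392 for Gata3, 0.328 for Tal1 and 0.329 for Lyl1. Deviations of same-numbered arrays correlated at -0.0236 over 19391 genes, which are not independent. With 2 arrays a group this cannot show whether the replicate numbers pair the arrays. Gata1 was above Gata3 in the authors' deposited table (1.1 against 1) and under repaired normexp, and below it as reported.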
